A study of Mus musculus with 12 samples.

Results

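The genes described here encode the motors that move cargo along microtubules and actin in neurons: kinesins (Kif) and their light chains (Klc), the cytoplasmic dynein chains (Dync, Dynl) with their cofactor dynactin (Dctn), and myosins V and VI (Myo5, Myo6). Transcript clusters, the gene-level probe groups of the array, were taken where they carried 1 symbol of these families. A log2 value above 5 in at least 3 of the 12 arrays was required, and the cluster with the highest mean stood for its gene. This gave 52 motor genes among 16425 named genes past the same filter. The filter left out 11 further genes.

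Most kinesins walk toward the plus ends of microtubules, which lie distally in axons, whereas dynein with dynactin walks toward the minus ends. Dendrites hold microtubules of both orientations. RNA granules, the particles that carry messenger RNAs and RNA-binding proteins such as Staufen2 into dendrites, have been found together with kinesin-1 heavy chains in rodent brain. Myosins V and VI act over shorter distances on actin, for instance in dendritic spines.

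Expression was measured in brain lysates of adult male mice aged 16 to 20 weeks on Affymetrix Mouse Gene 2.0 ST arrays, with 3 mice in each of 4 groups. Trained Stau2GT mice carried the gene trap allele B6.129P2-Stau2Gt(RRG396)Byg and had gone through 4 weeks of behavioral testing in the open field, object recognition and location tasks and the Barnes maze. Trained WT mice were wild type and went through the same tests. Naive Stau2GT mice carried the trap without the tests, and naive WT mice had neither. All 4 groups are labelled with the C57Bl/6J background, and the trap is carried in all cells, with no driver that limits it to a cell type. The sources used here do not say whether Stau2GT and WT mice were littermates.

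Stau2 itself was at 8.02, 7.95 and 8.07 (log2) in trained Stau2GT brains, against 8.27, 8.16 and 8.30 in trained WT brains. It was at 8.08, 8.06 and 8.07 in naive Stau2GT brains, against 8.22, 8.32 and 8.21 in naive WT brains. Thus the genotypes did not overlap in either state, although limma's adjusted p was 0.330 and 0.954 for the trained and the naive comparison. Neuronal markers were above 5 in all 12 arrays for 7 of 7 genes. Array medians lay between 5.68 and 5.79. The 3 trained Stau2GT arrays correlated least within their group (0.978 to 0.980). All naive arrays carry 1 run label and all trained arrays another, so an effect of training cannot be told apart from one of the array run. The genotype comparisons each lie within 1 run.

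Of the 52 motor genes, 50 were above 5 in all 12 arrays. Kif27, a relative of the ciliary kinesin Kif7, passed in 11 arrays, and Kif24, a kinesin-13 of the centriole, passed in 10. In naive Stau2GT brains Kif24 was at 4.98, 4.96 and 5.01. Just outside the filter were Kif18a, with 2 arrays above 5 and a highest value of 5.13, Kif2c with 1 array and 5.16, and the pseudogene Kif4-ps with 2 arrays and 5.10. The mitotic kinesins, which build and move the spindle of dividing cells, made up most of the genes left out. Only 2 of their 11 genes, Kif11 and Kif18b, passed. A further 5 clusters carried several symbols and were not used, 4 of them with Dynlt1 genes and 1 with Kif3c.

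By the median, the motors varied less between mice of a group than all clusters tested did. The within-group SD, pooled over the 4 groups, had a median of 0.0764 on the log2 scale over the 52 genes, against 0.130 over all 27966 clusters tested. The difference was present in each range of signal. Below a mean log2 value of 6 the median SD was 0.119 in 8 motor genes and 0.170 in all clusters, and at 10 or more it was 0.0397 in 10 motor genes and 0.0737 in all clusters. Here and below, all clusters include those with no symbol or several. Of the 27966, 17331 carried 1 symbol, as every motor cluster used did. Kif1b, a kinesin-3 that carries mitochondria and synaptic vesicle precursors, had the smallest SD of the 52 (0.0243). Its lowest and highest values over all 12 mice were 0.07 apart. Dynlrb2, a roadblock-type dynein light chain, had the largest SD (0.156) and ran from 5.07 to 5.71.

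**Figure D1:**
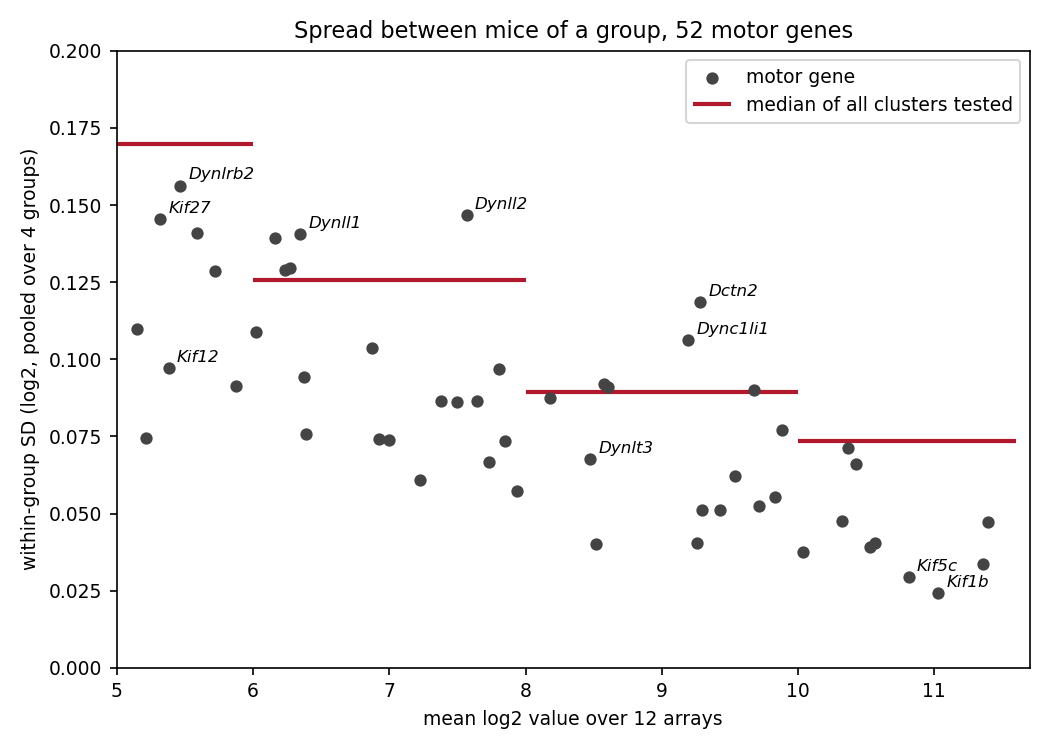
Within-group SD (y axis, log2, pooled over the 4 groups) against the mean log2 value over 12 arrays (x axis) for the 52 motor genes, with red lines at the median SD of all clusters tested in each range of signal. Most motor genes lie below the line of their range, and Dynlrb2 lies highest at 0.156.

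The heavy chains of kinesin-1 form the motor most often tied to granules. From lowest to highest over the 12 arrays, Kif5c spanned 0.14, Kif5b 0.25 and Kif5a 0.28. Their within-group SDs were 0.0293, 0.0661 and 0.0473, beside a median of 0.0397 in the 10 motor genes with a mean of 10 or more. Kif5c was at 10.82, 10.83 and 10.82 in trained Stau2GT brains, 10.78, 10.76 and 10.74 in trained WT brains, 10.79, 10.82 and 10.88 in naive Stau2GT brains, and 10.80, 10.86 and 10.83 in naive WT brains. The trained genotypes did not overlap, but the log2 difference was only 0.06 (95% interval -0.05 to 0.18, limma adjusted p = 0.783). Kif5a was at 11.42, 11.34 and 11.40 in naive Stau2GT brains, against 11.33, 11.29 and 11.23 in naive WT brains. Here too the groups separated by a small step of 0.10 (-0.03 to 0.23, adjusted p = 0.998). For Kif5b the naive difference was 0.13 (-0.02 to 0.28) and the trained one 0.02 (-0.13 to 0.17). A second Kif5b cluster, close to the filter, ran from 4.57 to 5.29 over the 12 arrays. Trained minus naive, it gave 0.32 in Stau2GT mice (limma adjusted p = 0.119) and 0.43 in WT mice (0.106). The cluster that stood for Kif5b gave -0.12 in Stau2GT mice, the opposite sign.

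A list of 21 motors held those known from neuronal RNA granules or dendritic transport, together with others named to represent motor families. Of these, 20 were measured, and Klc2 had no cluster of its own symbol here. The 95% interval of the genotype difference stayed within a fold of 1.25 either way for 19 of the 20 in trained and in naive mice, against 48.2% and 52.1% of all clusters. The exception in both was Dynll1, an LC8 light chain of dynein, at -0.17 (-0.42 to 0.07) in trained and 0.19 (-0.05 to 0.43) in naive brains. The share of all clusters rose with signal, to 75.2% and 77.8% at a mean of 8 to 10. At 10 or more it was 81% in trained and 83.2% in naive mice. Kif17, a dendritic kinesin-2 known for NMDA receptor vesicles, differed by -0.07 (-0.22 to 0.09) in trained and -0.09 (-0.24 to 0.07) in naive brains. Kif1a, the carrier of synaptic vesicle precursors, differed by -0.03 (-0.15 to 0.09) and -0.05 (-0.17 to 0.07). The dynein heavy chain Dync1h1, which holds the motor domain, differed by -0.02 (-0.18 to 0.13) and -0.06 (-0.22 to 0.09). Dctn1, the dynactin subunit that binds microtubules and dynein, differed by -0.04 (-0.22 to 0.13) and 0.01 (-0.16 to 0.19). Myo5a, the main brain myosin V, differed by 0.02 (-0.11 to 0.15) and -0.01 (-0.14 to 0.12).

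**Figure D2:**
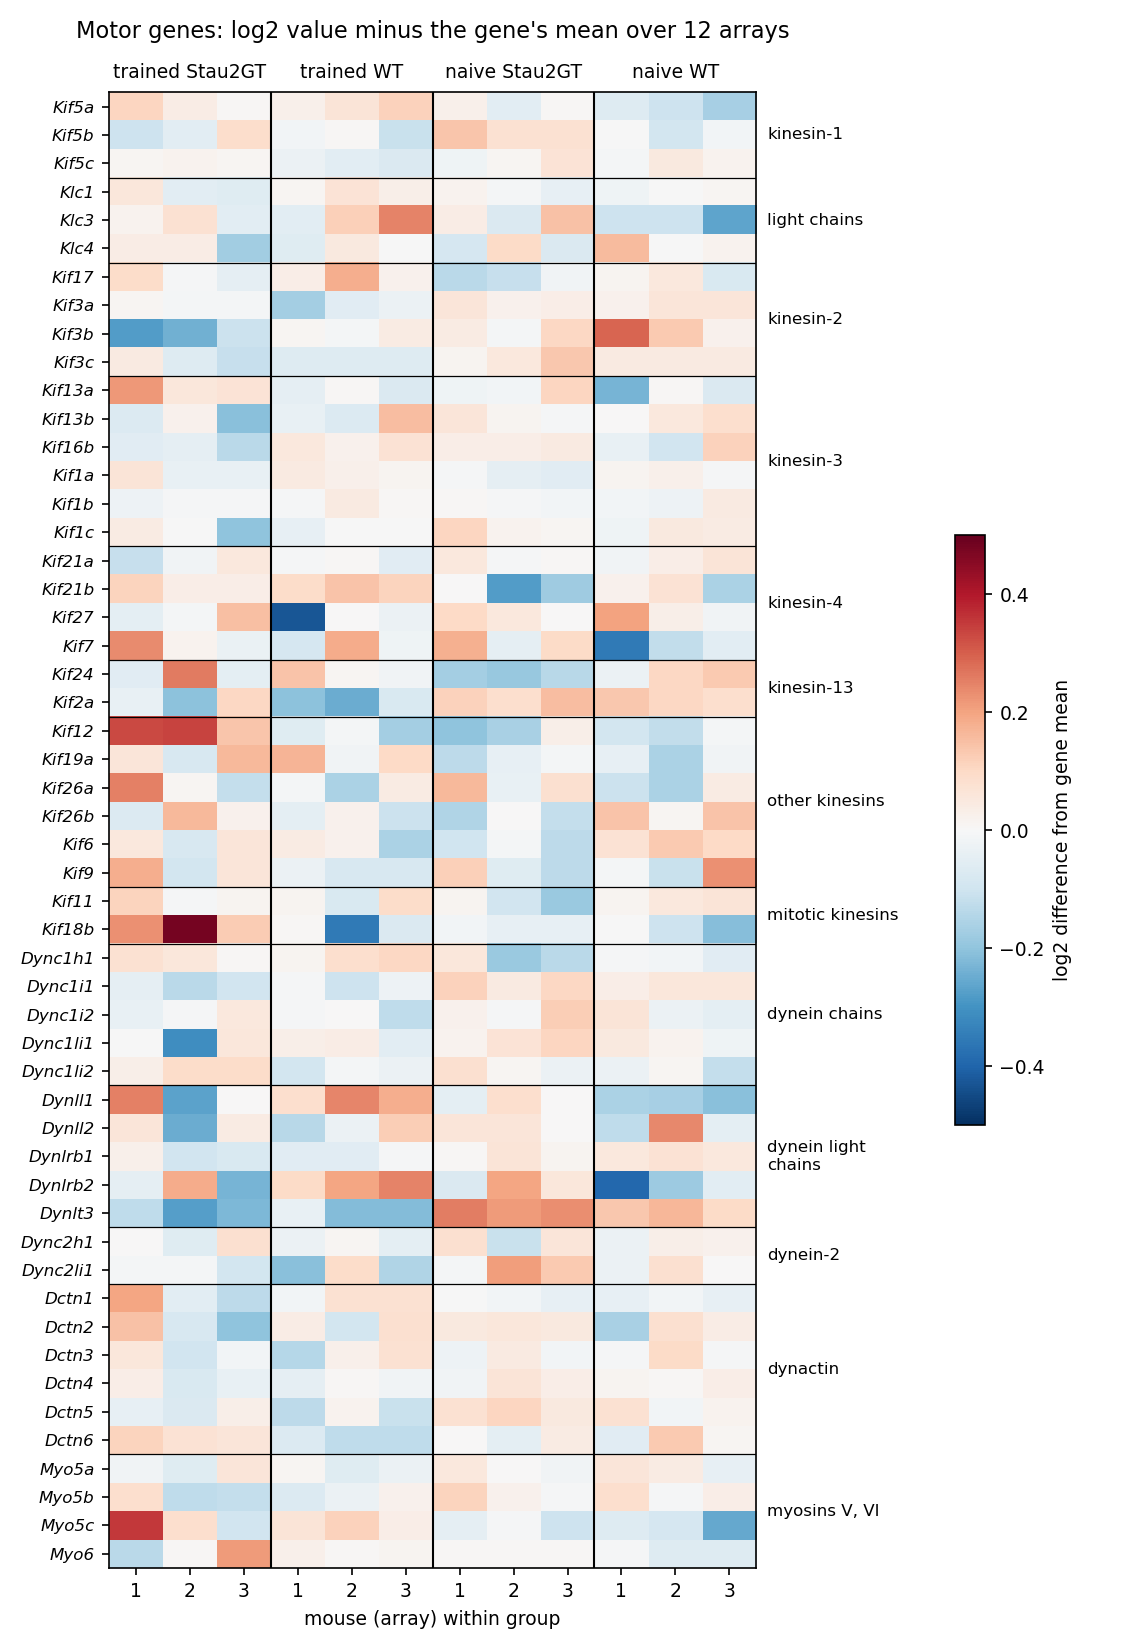
Log2 value of each motor gene minus its mean over 12 arrays (colour, red above and blue below), with 1 column per mouse in the order trained Stau2GT, trained WT, naive Stau2GT and naive WT, and rows grouped by motor family. Dynlt3 changes colour between all trained and all naive columns, whereas most rows, such as Kif1b with a range of 0.07, stay pale.

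In trained mice, no motor gene passed an adjusted p of 0.05 in limma between Stau2GT and WT, against 0.179% of all clusters tested. At an unadjusted p under 0.05 there were 4 motor genes (7.69%, against 8.92% of all clusters): Kif18b, Kif12, Dctn6 and Kif3b. The log2 difference was above 0 in 25 genes and below 0 in 27, with a median of -0.005, against 0.003 over all clusters. For 43 of the 52 genes (82.7%) the 95% interval stayed within a fold of 1.25 either way, against the 48.2% of all clusters given above. All 25 motor genes with a mean of 8 or more were among the 43, but only 3 of the 8 with a mean below 6. Of all clusters, 26.4% met this bound below a mean of 6 and 50.9% from 6 to 8. From 8 to 10 it was 75.2%, and at 10 or more 81%.

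Kif18b, a mitotic kinesin that shortens microtubules, was at 5.82, 6.07 and 5.72 in trained Stau2GT brains, against 5.60, 5.24 and 5.52 in trained WT brains. The groups did not overlap, and the difference of 0.42 (0.17 to 0.66) was the highest of the 52 (adjusted p = 0.314). Kif12, a kinesin studied mainly in kidney and liver, was at 5.71, 5.72 and 5.52 in trained Stau2GT brains, against 5.32, 5.37 and 5.21 in trained WT brains, a difference of 0.35 (0.16 to 0.54, adjusted p = 0.255). Both genes lie near the low end of the signal. Beside them, the markers of dividing cells were low in all groups, and 5 of 11 passed the filter. Their mean level was 5.39 to 5.46 in trained Stau2GT brains and 5.34 to 5.43 in trained WT brains, and the part of such cells in the Kif18b values was not tested.

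Kif3b, which pairs with Kif3a in the kinesin-2 of cilia and dendrites, was at 7.10, 7.14 and 7.27 in trained Stau2GT brains, against 7.39, 7.37 and 7.42 in trained WT brains. All 3 Stau2GT values were lower, by 0.22 on average (log2 difference -0.22, -0.40 to -0.05, adjusted p = 0.435). Its partner Kif3a was at 9.27, 9.25 and 9.25 in trained Stau2GT brains, against 9.09, 9.20 and 9.23 in trained WT brains (0.08, adjusted p = 0.727), the opposite sign. Dctn6, a subunit of the pointed end of dynactin, was at 8.05, 8.01 and 8.0 in trained Stau2GT brains, against 7.87, 7.81 and 7.81 in trained WT brains (0.19, 0.05 to 0.33, adjusted p = 0.410). The other 5 dynactin subunits differed by -0.05 to 0.05. The next highest were Kif27 at 0.18 and Kif13a at 0.15, and the next lowest Dynlrb2 at -0.21, Dynll1 at -0.17, Kif16b at -0.13 and Kif13b at -0.10. None of them passed the test. A second Kif27 cluster differed by -0.01 in the same comparison. With 1 array left out, the 0.18 of Kif27 ran from 0.045 to 0.26.

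Groups without overlap were counted as a description of all members. In trained mice 9 motor genes (17.3%) separated the genotypes, against 11.2% of all clusters. Of these, 7 were higher in Stau2GT (Kif18b, Kif12, Dctn6, Kif13a, Dync1li2, Kif3a and Kif5c, against 6.15% of all clusters) and 2 were lower (Kif3b and Kif16b, against 5.02% of all clusters). With 3 mice against 3, the exact permutation test cannot give a two-sided p below 0.1, which is what each of these genes reached.

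**Figure D3:**
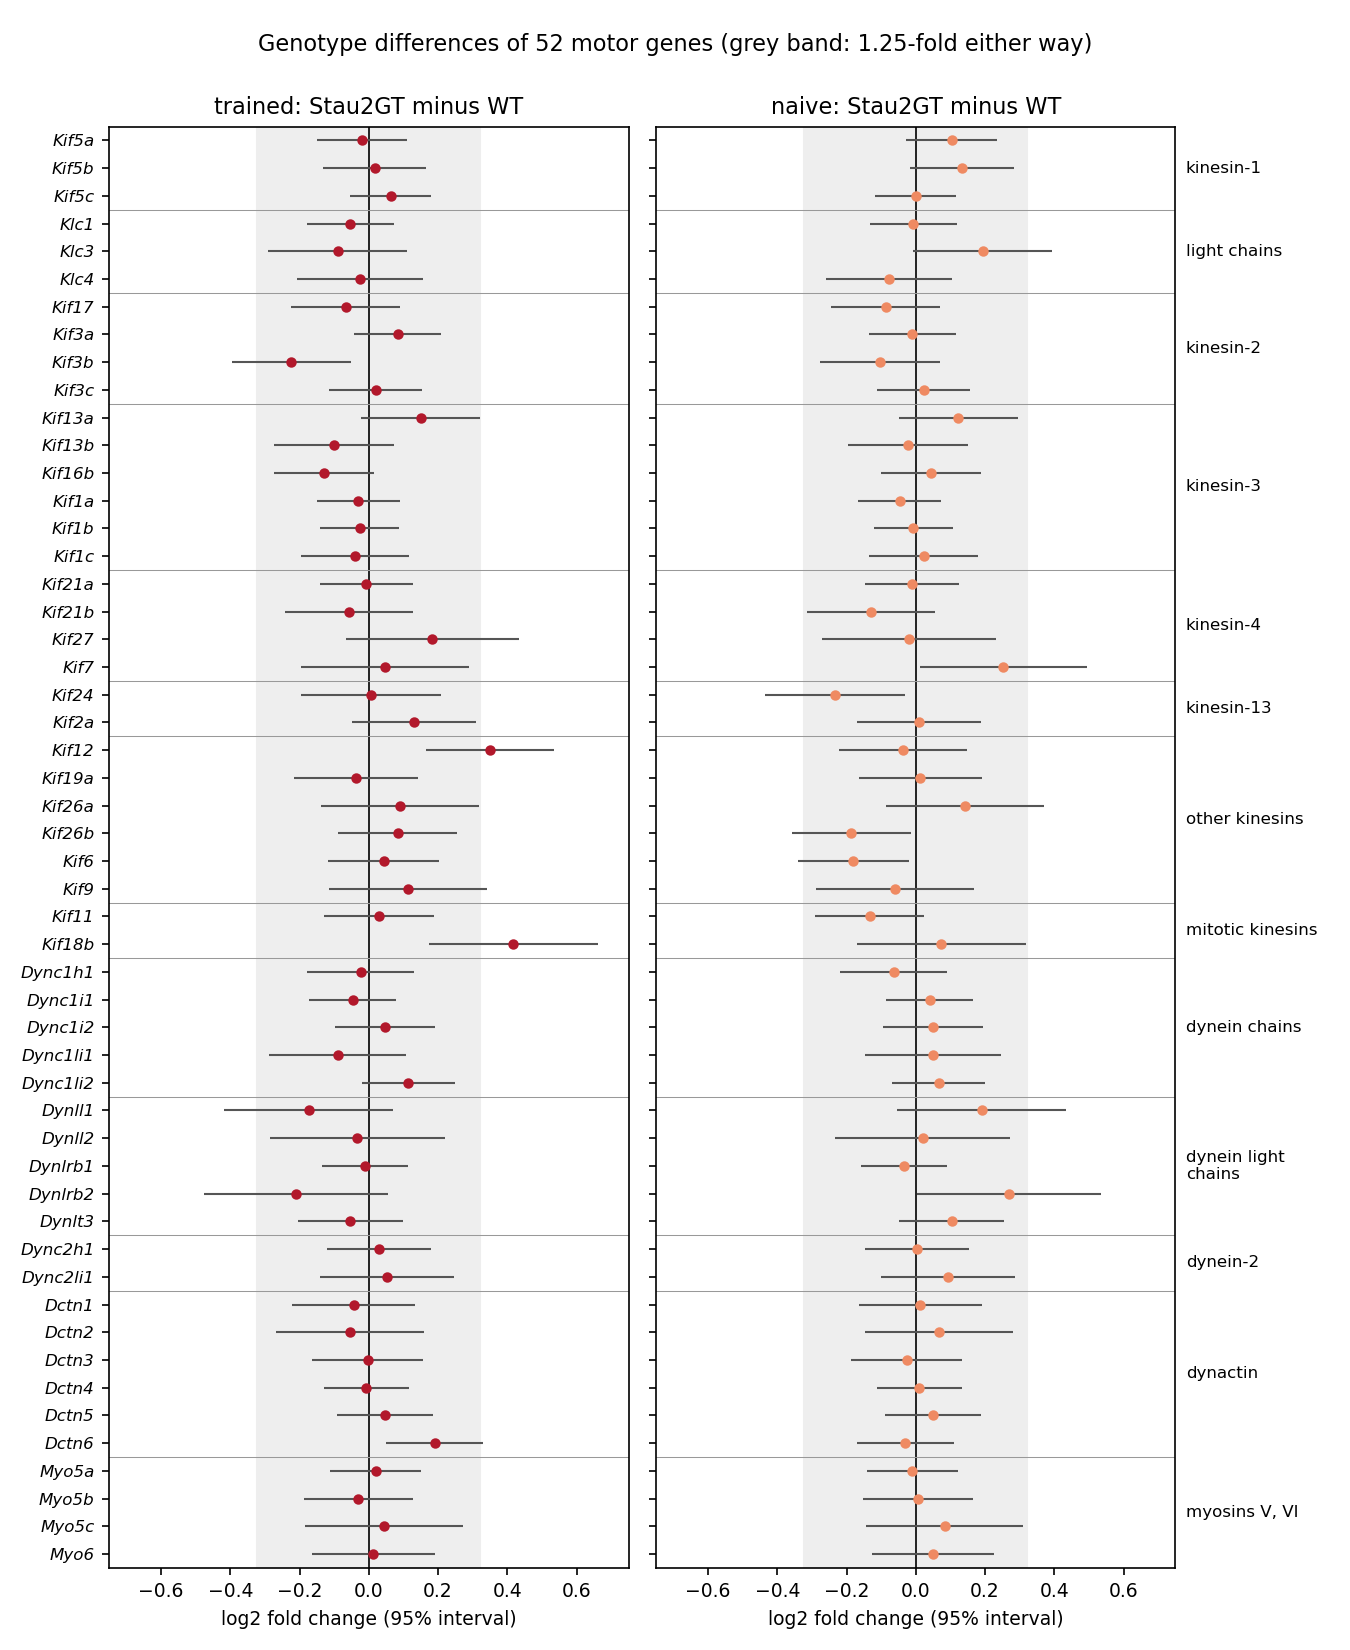
Log2 difference of Stau2GT minus WT (x axis, points) with its 95% interval (bars) for the 52 motor genes, in trained mice (left) and naive mice (right), with a grey band at a fold of 1.25 either way. Of the 52 intervals, 43 lie within the band in trained mice and 44 in naive mice.

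In naive mice, again no motor gene passed between Stau2GT and WT, where 0.0858% of all clusters did. At an unadjusted p under 0.05 there were 5 (9.62%, against 5% of all clusters): Dynlrb2 and Kif7 above 0, and Kif24, Kif26b and Kif6 below it. The interval stayed within a fold of 1.25 for 44 genes (84.6%, against 52.1%). Among them were 6 of the 8 with a mean below 6 and 13 of the 19 from 6 to 8. Of all clusters, 30.4% met this bound below 6 and 55.3% from 6 to 8. From 8 to 10 it was 77.8%, and at 10 or more 83.2%. The median difference of the motor genes was 0.01, and 29 genes lay above 0 and 22 below. Kif7, a regulator of Hedgehog signaling at the tip of the cilium, was at 6.34, 6.12 and 6.26 in naive Stau2GT brains, against 5.81, 6.04 and 6.11 in naive WT brains (0.25, 0.01 to 0.50, adjusted p = 0.979). A second Kif7 cluster, with means near 5.7, differed by -0.10 in the same comparison. The 2 clusters of this gene thus differed in sign.

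Of the 5 dynein light chains, 0 passed in the naive comparison, and Dynlrb2 and Dynll1 had the largest differences among them. Dynlrb2 was at 5.39, 5.66 and 5.52 in naive Stau2GT brains, against 5.07, 5.28 and 5.41 in naive WT brains, overlapping in 1 pair of values (0.27, 0.00 to 0.54, adjusted p = 0.992). Dynll1, which also serves as a general binding hub, was at 6.30, 6.43 and 6.35 in naive Stau2GT brains, against 6.19, 6.18 and 6.14 in naive WT brains (0.19, adjusted p = 0.998). The other light chains gave 0.10 (Dynlt3), 0.02 (Dynll2) and -0.03 (Dynlrb1). Klc3, a light chain of kinesin-1, differed by 0.19 and Kif26a, a family member without motor activity, by 0.14. On the other side were Kif24 (-0.23), Kif26b (-0.19), Kif6 (-0.18), Kif11 (-0.13) and Kif21b (-0.13), with adjusted p from 0.954 to 0.998.

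Without overlap were 10 motor genes in naive mice (19.2%, against 12% of all clusters). Higher in Stau2GT were 7 of them (6.39% of all clusters), namely Kif7, Klc3, Dynll1, Kif5b, Kif5a, Dynlt3 and Myo6. Lower were 3 (5.62% of all clusters), namely Kif24, Kif26b and Kif6. Myo6 was at 9.68 in all naive Stau2GT brains, against 9.67, 9.61 and 9.61 in naive WT brains. This gap is the smallest that values of 2 decimals can show, as is that of Kif7 (6.12 against 6.11). The mean level of 6 oligodendrocyte markers also separated these groups, at 9.19 to 9.25 in naive Stau2GT brains and 9.0 to 9.07 in naive WT brains, with 0 of the 6 past the test. Other marker lists separated the other way. Dividing-cell markers were at 5.18 to 5.29 in naive Stau2GT and 5.33 to 5.38 in naive WT brains, and those of skeletal muscle at 5.65 to 5.76 in naive Stau2GT and 5.82 to 5.91 in naive WT brains, again with 0 genes past the test. Those of ciliated ependymal cells nearly met, at 5.98 to 6.04 in naive Stau2GT and 6.04 to 6.06 in naive WT brains. Markers of astrocytes, microglia, neuroblasts, endothelium, choroid plexus, liver and pituitary overlapped between the naive genotypes by their mean level. For neurons the highest naive Stau2GT level met the lowest naive WT level. The part of these signals in the motor values was not tested. No motor gene separated the genotypes the same way in both states, which 0.615% of all clusters did.

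Averaged over both training states, no motor gene passed (0.118% of all clusters), and 51 of 52 intervals (98.1%, against 75.1%) stayed within a fold of 1.25. The exception was Kif18b at 0.25 (0.07 to 0.42, adjusted p = 0.644). After it came Kif12 at 0.16, Kif7 at 0.15, Kif13a at 0.14 and Kif26a at 0.12. Lowest were Kif3b at -0.16 (-0.29 to -0.04, adjusted p = 0.672), Kif24 at -0.11, Kif21b at -0.09, Kif17 at -0.08 and Kif6 at -0.07. The share of all clusters within a fold of 1.25 ran from 60.4% below a mean of 6 to 92.7% at 10 or more.

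The difference between the trained and the naive genotype difference, the interaction, passed for no motor gene (0.0215% of all clusters). At an unadjusted p under 0.05 there were 5 (9.62%, against 7.7%): Kif12 (0.39, 0.12 to 0.65, adjusted p = 0.529), Kif26b (0.27), Dctn6 (0.22), Dynll1 (-0.36) and Dynlrb2 (-0.48, -0.86 to -0.10, adjusted p = 0.581). The remaining genes among the 5 highest were Kif18b (0.34), Kif24 (0.24) and Kif6 (0.22), and among the 5 lowest Klc3 (-0.28), Kif7 (-0.21) and Kif16b (-0.17), each above an unadjusted p of 0.05. These intervals are wide, and only 27 of 52 (51.9%, against 20.3% of all clusters) stayed within a fold of 1.25. Among all clusters this share ran from 5.09% below a mean of 6 to 58.5% at 10 or more.

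**Figure D4:**
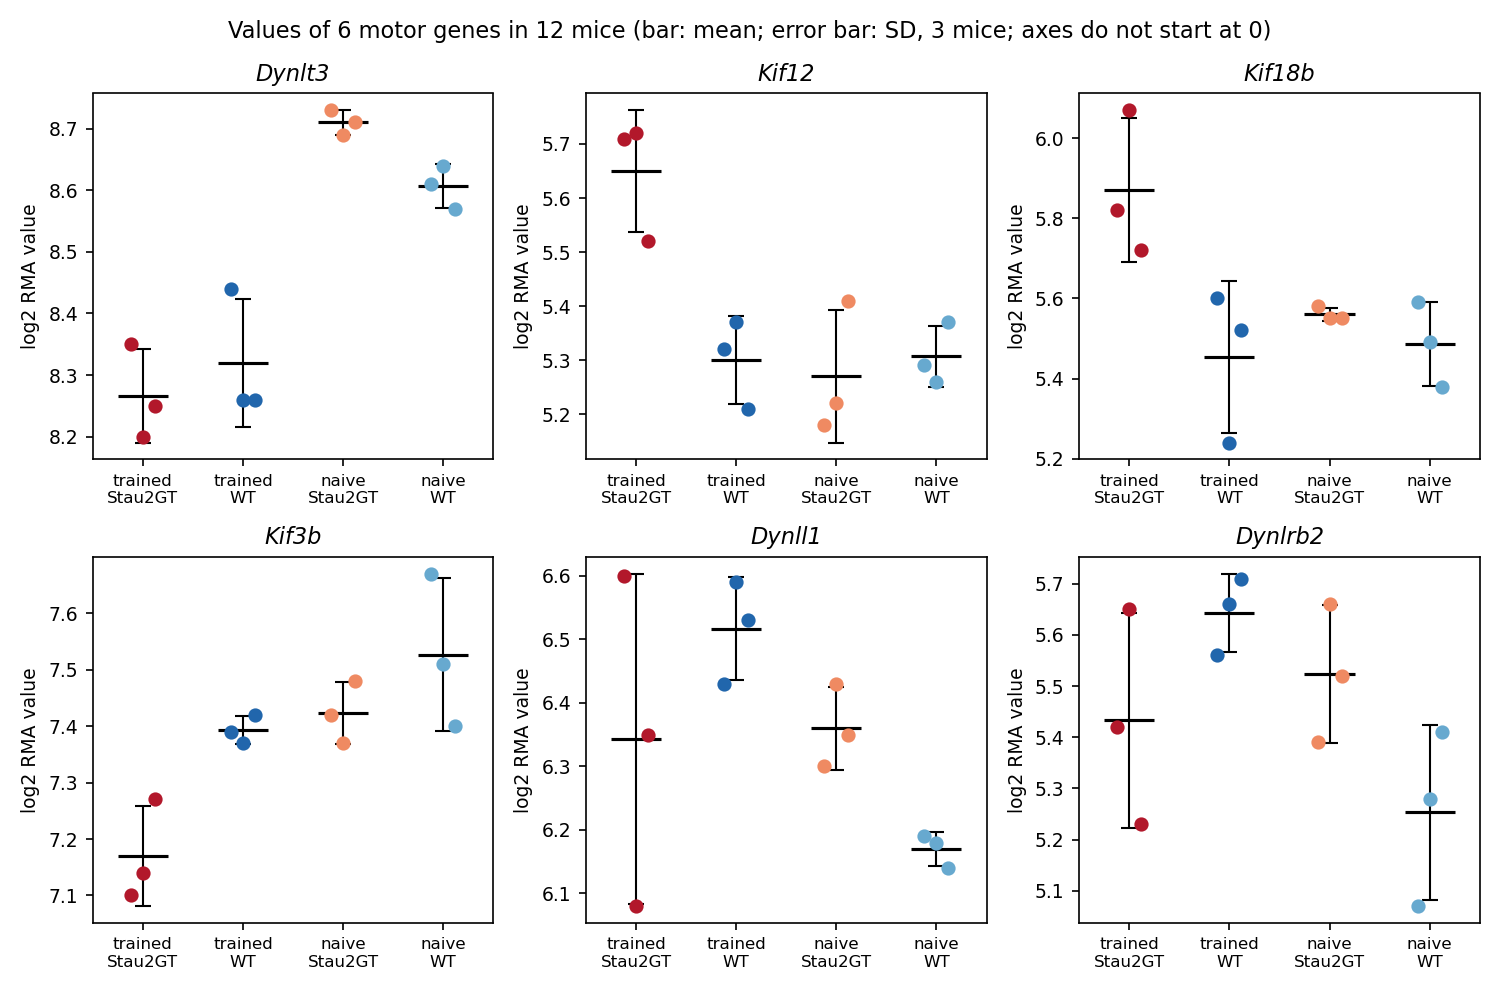
Log2 values of Dynlt3, Kif12, Kif18b, Kif3b, Dynll1 and Dynlrb2 (y axes, not starting at 0) in each mouse of the 4 groups (x axis), with the mean and SD of 3 mice. Dynlt3 lies at 8.20 to 8.44 in all trained and 8.57 to 8.73 in all naive mice, and Kif12 is highest in trained Stau2GT mice.

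Trained and naive brains of Stau2GT mice differed in 2 motor genes. This is 3.85% of the 52, against 6.11% of all clusters, 3.13% higher and 2.98% lower. Dynlt3, a Tctex-type light chain of dynein, was at 8.35, 8.20 and 8.25 in trained Stau2GT brains, against 8.73, 8.69 and 8.71 in naive Stau2GT brains. It fell by 0.44 on the log2 scale (SE 0.07, adjusted p = 0.00957), to 0.735 of the naive level (0.662 to 0.816). Kif12 was at 5.71, 5.72 and 5.52 in trained Stau2GT brains, against 5.18, 5.22 and 5.41 in naive Stau2GT brains, and rose by 0.38 (SE 0.08, adjusted p = 0.0293), a fold of 1.30 (1.14 to 1.48). Neither pair of groups overlapped. Fewer cells that express a gene and less RNA per cell cannot be told apart in these lysates.

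The 2 calls differed in how far they held. Dynlt3 passed with any 1 of the 12 arrays left out (adjusted p 0.0104 to 0.0393), but not in a fit of only the 6 arrays compared (0.0535) or in the methods' t-test (0.105). Kif12 lost its call without naive Stau2GT mouse 1 (adjusted p = 0.0945) or 2 (0.0825). The same held without trained Stau2GT mouse 1 (0.0601) or 2 (0.0923). In that order, its difference was then 0.335, 0.355, 0.35 and 0.345. Of all clusters, 430, 526, 1472 and 492 passed in these fits, against 1708 with all arrays. Kif12 also lost its call after quantile normalization (0.0710), median centring (0.0523), with only the 6 arrays (0.106) and in the methods' t-test (0.201).

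In WT mice no motor gene passed between trained and naive brains (1.4% of all clusters). Dynlt3 was at 8.44, 8.26 and 8.26 in trained WT brains, against 8.61, 8.64 and 8.57 in naive WT brains, again without overlap, with a difference of -0.29 (-0.44 to -0.14) that just missed the threshold (adjusted p = 0.0714). The interaction of Dynlt3 was -0.16 (-0.37 to 0.06, adjusted p = 0.746), so its training difference was not shown to differ between the genotypes. Kif12 in WT mice gave -0.01 (adjusted p = 0.982). Its difference of training differences is the 0.39 given above, which did not pass either.

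At an unadjusted p under 0.05 there were 7 motor genes in each genotype (13.5%), against 26.2% of all clusters in Stau2GT mice and 16% in WT mice. In Stau2GT mice these were Dynlt3, Kif12, Kif18b (0.31), Kif24 (0.22), Kif21b (0.21), Dync1i1 (-0.18, adjusted p = 0.0804) and Kif3b (-0.25, adjusted p = 0.0767). Dync1i1, a dynein intermediate chain abundant in neurons, was at 8.47, 8.38 and 8.42 in trained Stau2GT brains, against 8.63, 8.56 and 8.62 in naive Stau2GT brains. Kif3b was at the 7.10, 7.14 and 7.27 given above, against 7.42, 7.37 and 7.48 in naive Stau2GT brains.

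In WT mice the 7 genes were Dynlt3, Kif2a (-0.28), Kif3a (-0.13), Kif5a (0.18), Klc3 (0.26), Dynll1 (0.35) and Dynlrb2 (0.39), with adjusted p from 0.0714 to 0.282. Dynll1 was at 6.43, 6.59 and 6.53 in trained WT brains, against 6.19, 6.18 and 6.14 in naive WT brains. Kif2a, a kinesin-13 that takes microtubules apart at their ends, was at 8.37, 8.33 and 8.5 in trained WT brains, against 8.71, 8.68 and 8.66 in naive WT brains. In Stau2GT mice the same comparison gave -0.02 for Dynll1, -0.09 for Dynlrb2 and -0.16 for Kif2a. Groups without overlap numbered 11 (21.2%, against 28.1% of all clusters) in Stau2GT mice. Of these 5 were higher (15.2% of all clusters) and 6 lower (12.9%). In WT mice they numbered 17 (32.7%, against 22.9%), with 8 higher (11.4%) and 9 lower (11.5%).

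**Figure D5:**
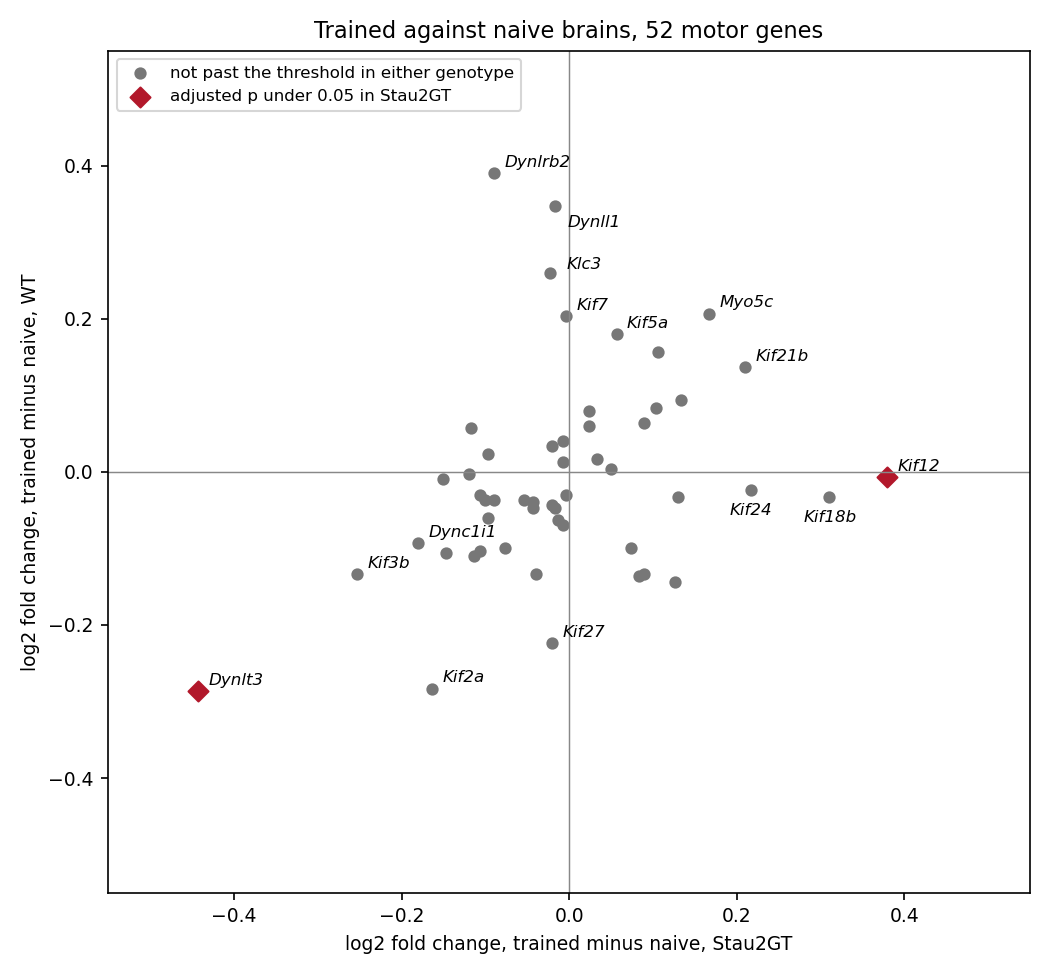
Log2 difference of trained minus naive brains in Stau2GT mice (x axis) and WT mice (y axis) for the 52 motor genes, with the genes past an adjusted p of 0.05 in Stau2GT mice as red diamonds. Dynlt3 lies low on both axes (-0.44 and -0.29), whereas Kif12 lies off 0 in Stau2GT mice alone (0.38 and -0.01).

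Other signals moved with training. The mean level of 5 pituitary hormone genes was 5.27 to 5.89 in trained Stau2GT brains and 7.33 to 9.09 in naive Stau2GT brains, and 5.06 to 5.35 in trained WT brains and 6.02 to 8.90 in naive WT brains. Of the 5 genes, Gh alone fell past the test in each genotype (adjusted p 0.0210 in Stau2GT and 0.0360 in WT). In naive WT brains Gh was at 10.14, 8.76 and 12.91, and Dynlt3 at 8.61, 8.64 and 8.57. In naive Stau2GT brains Gh was at 12.93, 10.44 and 11.43, and Dynlt3 at 8.73, 8.69 and 8.71. A relation between these genes was not tested. Clusters with a mean below 6, such as Kif12, had a median trained minus naive difference of 0.11 in Stau2GT mice, against -0.06 for clusters from 8 to 10, such as Dynlt3.

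Some marker lists of other cells also separated trained from naive brains, whereas others did not. By their mean level, the markers of neurons, astrocytes, microglia, neuroblasts, choroid plexus and liver overlapped between trained and naive brains in both genotypes. In Stau2GT mice the 5 dividing-cell markers had a mean level of 5.39 to 5.46 in trained and 5.18 to 5.29 in naive brains, beside the differences of 0.38 in Kif12 and 0.31 in Kif18b. Their median difference was 0.27, and 3 of the 5 had an unadjusted p under 0.05 (26.2% of all clusters), with 0 past the adjusted one. They gave 0.38 (Ccnb2), 0.28 (Plk1), 0.27 (Cdk1), 0.03 (Ccna2) and -0.05 (Aurkb). Below the filter, Mki67 was at 4.62, 4.75 and 4.71 in trained and 4.75, 4.84 and 4.87 in naive Stau2GT brains. Cenpe was at 4.77, 4.83 and 4.70 in trained and 4.52, 4.43 and 4.57 in naive ones, and Bub1, Cenpf and Top2a overlapped. In WT mice the mean level of the 5 markers past the filter overlapped, at 5.34 to 5.43 in trained and 5.33 to 5.38 in naive brains. Of 5 skeletal muscle markers, Myh1 and Myh4 did not pass the filter. The mean level of the other 3 separated in both genotypes. It was 5.88 to 6.10 in trained and 5.65 to 5.76 in naive Stau2GT brains. In WT mice it was 5.95 to 6.13 in trained and 5.82 to 5.91 in naive brains. Of the 3, Ckm, the muscle creatine kinase, passed in Stau2GT mice (0.39, adjusted p = 0.0375). Endothelial markers were at 7.70 to 7.75 in trained and 7.86 to 7.91 in naive Stau2GT brains, and those of ciliated ependymal cells at 6.06 to 6.10 in trained and 5.98 to 6.04 in naive Stau2GT brains, with 0 past the test. In WT mice the oligodendrocyte markers separated, at 9.14 to 9.22 in trained and 9.0 to 9.07 in naive brains, also with 0 past the test. The part of tissue makeup and of signal range in the motor values was not tested.

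By family, the training differences in Stau2GT mice were below 0 in 5 of 5 dynein light chains (median -0.09) and 3 of 4 kinesin-2 genes (-0.08). The same held for 4 of 6 dynactin subunits (-0.04), 4 of 6 kinesin-3 genes (-0.05) and 3 of 3 kinesin light chains (-0.01). It also held for 2 of 2 dynein-2 genes (-0.075), 3 of 4 kinesin-4 genes (-0.01) and 2 of 3 kinesin-1 heavy chains (-0.01). Above 0 were 5 of the 6 genes Kif6, Kif9, Kif12, Kif19a, Kif26a and Kif26b (median 0.10), which belong to smaller kinesin families. Of the mitotic kinesins 2 of 2 were above 0 (0.22), and of the kinesin-13 genes 1 of 2 (0.03). The median of all 52 was -0.02, with 19 genes above 0 and 33 below, against 0.02 over all clusters. This balance turned to 28 above and 24 below after quantile normalization and to 26 above and 25 below without trained Stau2GT mouse 2, whereas centring each array on its median gave 13 above and 38 below. The 5 cytoplasmic dynein chains had a median of -0.04, with Dync1h1 at 0.13 and Dync1i1 at -0.18. The 4 myosins had a median of 0.00, with Myo5c at 0.17 as the highest. Of all 27966 clusters, 14819 lay above 0 and 12965 below. Their median was 0.11 below a mean of 6, -0.06 from 8 to 10 and -0.03 at 10 or more.

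The partners of the motors were read from lists of adaptors and of microtubule proteins. Of 45 adaptors and regulators, which tie motors to cargo or switch them on, 40 were measured, and 0 passed between genotypes in trained or naive mice (0.179% and 0.0858% of all clusters) or in trained against naive WT brains (1.4%). In Stau2GT mice 1 of the 40 passed (2.5%, against 6.11% of all clusters). This was Bicdl2, a dynein activator of the Bicaudal-D type, at 5.39, 5.68 and 5.47 in trained Stau2GT brains, against 5.09, 5.26 and 5.23 in naive Stau2GT brains. It rose by 0.32 (adjusted p = 0.0490), and like Kif12 it lies in the low range of signal. Hook3, another dynein activator, had a difference of -0.35 in Stau2GT (adjusted p = 0.0580) and -0.24 in WT mice (0.254). Of 26 microtubule proteins, among them tubulins, Map2 and tau, 25 were measured, and 0 passed in any of these comparisons, for which the shares of all clusters are those just given. For 22 of the 25 (88%) the genotype interval stayed within a fold of 1.25 in trained and likewise in naive mice. Among the 40 adaptors and regulators it did for 35 (87.5%) in trained and 37 (92.5%) in naive mice. The motor genes gave 82.7% and 84.6%. The shares of all clusters were 48.2% and 52.1%, and 75.2% and 77.8% for those with a mean of 8 to 10.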

How the data were processed

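Total RNA of 12 mouse brains, 3 per group, was hybridised to Mouse Gene 2.0 ST arrays. The authors ran RMA on the extracted intensities with the R package oligo. The deposited log2 values, 1 for each cluster on each array, are rounded to 2 decimals. The sources used here do not state oligo's version, the genome build, or whether 1 RMA run covered naive and trained arrays. Gene symbols came from the platform annotation, and all 66 clusters of the motor families matched the RefSeq gene table under the same symbol. These clusters stand for 63 genes, of which 52 passed the filter of the study's methods, log2 above 5 on 3 or more arrays. RMA pulls low signals together, so differences of dim clusters may be understated. Precision is limited by the number of arrays.

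limma 3.58.1 in R 4.3.3 was fitted with a mean for each of the 4 groups over the 12 arrays (8 residual, 2.78 prior degrees of freedom). Benjamini-Hochberg adjustment covered the 27966 clusters past the filter, of 41345. The fit was tested on simulated data. Exact permutation tests were two-sided. Alternatives were no filter or one at 6, quantile normalization, median centring, an intensity trend, array weights, a replicate block, only the 6 arrays compared, the methods' t-test, the mean over a gene's clusters, and each array left out. Named were all genes past the threshold and the 5 highest and 5 lowest in each genotype comparison and the interaction. Also named were a list of granule and dendritic motors with others that represent motor families, and the genes nearest the filter. Other names were chosen after their values were seen. The members and lists were chosen with earlier results of these data known. Nothing in the labels says more of the replicates than that they are separate mice.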

Additional observations from a re-analysis of the deposited data

How the results depend on the processing

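The count of motor genes past the threshold stayed at 0 in both genotype comparisons, in their average and in the interaction under all alternatives run. For trained against naive Stau2GT brains the count of 2 became 1 with a filter at 6, which drops Kif12, 1 after quantile normalization (Kif12 adjusted p = 0.0710), and 0 with only the 6 arrays compared or with the methods' t-test, and it ran from 1 to 2 with 1 array left out. It was 3 under median centring (Dync1i1, Dynlt3, Kif3b) and with the intensity trend (Dync1i1, Dynlt3, Kif12). Of all 27966 clusters, 2129 and 1973 passed in these settings, against 1708 in the fit given above. Passing clusters fell to 1212 after quantile normalization, to 261 with only the 6 arrays and to 0 with the methods' t-test. With the filter at 6 they were 1696 of 19654. With 1 array left out they ran from 430 of 27886 to 2150 of 27802. For trained against naive WT brains the count of 0 became 1 (Dynlt3) with the filter at 6, the intensity trend and array weights. Clusters past the test then numbered 512 of 19654, 661 of 27966 and 730 of 27966, against 391 in the fit given above. In the methods' t-test Kif3c was left out of this comparison, because its rounded values were equal within each group (9.23 in trained WT, 9.34 in naive WT) and gave no spread. The interaction of Kif7 turned to 0.015 with the mean over its clusters.

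Replicate numbers did not pair the samples, as deviations of same-numbered mice correlated by -0.0272 to 0.0686. With the replicate block the count in Stau2GT mice was 1 (Dynlt3 adjusted p = 0.0174, Kif12 adjusted p = 0.0528), and the other counts stayed at 0. Of all 27966 clusters, 1394 then passed in Stau2GT mice. Over 22 alternatives Dynlt3 passed in 20 and ran from -0.52 to -0.38, and over 21 Kif12 passed in 12 and ran from 0.30 to 0.45. The causes were not tested.

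Of the 8 motors with a mean below 6, the genotype interval lay within a fold of 1.25 for 3 in trained and 6 in naive mice, and of the 25 with a mean of 8 or more it did for all 25 in both.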
